A study of Arabidopsis thaliana with 30 samples.

Results

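Systemic leaves of untreated Arabidopsis thaliana plants, that is, leaves away from the roots, were compared after 30 min and at 0 min of an experiment in which the roots of other plants were waterlogged. The 6 libraries were taken by their sample titles, 3 of untreated leaves at 30 min and 3 of leaves at 0 min, out of 30 in the series. Both groups were wild type (WT, accession Col-0) with no treatment, and their labels differ in time alone. The rest of the series holds further WT leaves and leaves of the rbohD mutant, untreated and waterlogged. According to the design text, the 3 repeats of a genotype and time were made up from 15 plants, so a library is a pool of plants. Plant age, time of day and harvest batch are not given in the sources used here. Each time is 1 set of leaves, so time since the start and the harvest itself cannot be told apart. Nothing in the labels says whether the repeats were separate experiments. The p-values then measure only the spread between libraries of a group, pooled over all 30 libraries, which may be technical. The comparison asks what changes across genes in leaves of plants that were not waterlogged. Untreated leaves at 10 and 60 min (3 libraries each) and waterlogged leaves at 30 min are given beside a value only to place it.

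Jasmonate, a hormone whose marker genes were among the largest rises, is made from a plastid fatty acid by lipoxygenase, allene oxide synthase, allene oxide cyclase and the reductase OPR3. JAZ proteins repress the transcription factor MYC2 until the hormone triggers their breakdown, and both the JAZ genes and the genes of the enzymes are targets of the pathway. In leaves jasmonate is known for defence against wounding and herbivores, and salicylate, the hormone behind the PR (pathogenesis-related) genes, is known for defence against biotrophic pathogens. HY5 and the B-box proteins act in light signalling, and CCA1, LHY and PRR9 are morning genes of the circadian clock.

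Expression was given as FPKM, fragments of a transcript divided by its length and by the sequencing depth of the library. The authors' confidence bounds imply 10.89 M to 13.31 M fragments in each of the 6 libraries. Pearson correlations across genes of log2(FPKM + 1) were 0.977 to 0.984 within the 30 min group, 0.9785 to 0.9794 within the 0 min group and 0.974 to 0.981 between the groups. Replicate 2 at 0 min stood apart in the share of FPKM from mitochondrial genes, 1.4%, against 0.0132% to 0.0157% in the other 5 libraries. Replicate 1 at 30 min had 0.387% from chloroplast genes, against 0.126% to 0.179% in the others. The markers were those of leaves: all 5 root markers were listed at 0 in the 6 libraries, and the 5 mesophyll markers summed to 32880 to 34260 FPKM at 30 min and 30480 to 32730 FPKM at 0 min. Of the mesophyll markers 1 (LHCA4) was called, and of 5 guard cell, 8 vascular, 5 epidermis and 3 meristem or flower markers tested none was. Over all genes tested 3.92% were called. At an unadjusted p under 0.05 limma gave 1 guard cell, 2 vascular, 1 epidermis and no meristem or flower marker. Over all 17491 genes tested 2788 had such a p. The summed guard cell markers were 47.2 to 48.3 FPKM at 30 min and 42.0 to 46.0 FPKM at 0 min. All 5 guard cell and all 5 mesophyll markers tested had a positive fold change, and 7 of the 8 vascular ones a negative one. The part of guard cells and mesophyll in the results was not tested. A change in the number of cells of a type and one in RNA per cell cannot be told apart in whole leaves.

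Of 17491 genes tested, 685 were called between 30 and 0 min, that is, had an adjusted p of at most 0.05 in limma, which is 3.92% of the genes tested. Of these 338 were higher at 30 min (1.93%) and 347 lower (1.98%), and 2788 genes had an unadjusted p under 0.05. Most changes were small. The median size among the called genes was 0.36 on the log2(FPKM + 1) scale, on which all fold changes below are given and which understates changes of low genes. At least 2-fold were 41 called genes (0.234%), 31 higher and 10 lower. The median over all genes was -0.04, and the 3 libraries at 30 min lay wholly above or wholly below the 3 at 0 min in 22.4% of the genes. With 1 library left out in turn, 214 of the 338 higher and 122 of the 347 lower genes were called in all 6 fits. Without replicate 2 at 30 min the count fell to 445, and a fit of the 6 libraries alone called 267.

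**Figure D1:**
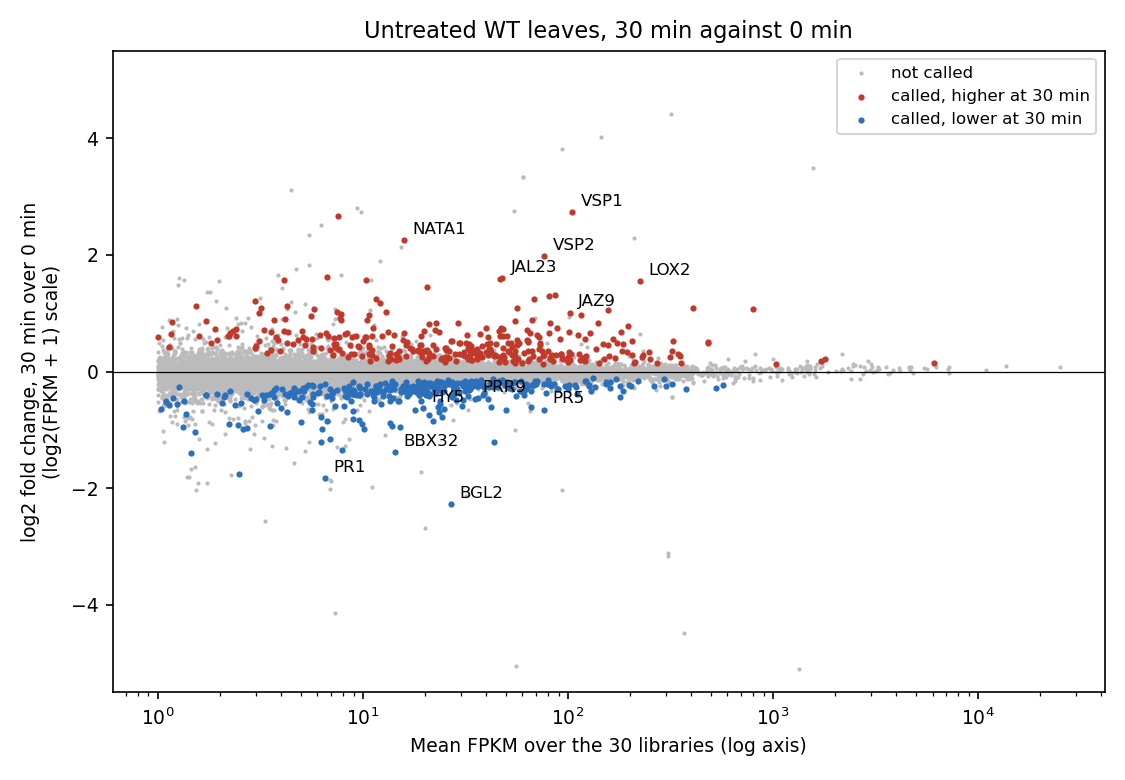
Each point is 1 gene: the horizontal axis (log) is its mean FPKM over the 30 libraries and the vertical axis its log2 fold change, 30 min over 0 min, with called genes in colour. The 11 spliceosomal U RNA genes are not drawn. The jasmonate genes VSP1, VSP2 and LOX2 lie far above 0 and the PR genes BGL2 and PR1 far below it, while most called genes lie close to 0.

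Most jasmonate genes rose at 30 min. Of the 25 members of the list, 22 were tested, 18 were called higher and none lower (81.8% called, against 3.92% of all genes). Their median log2 fold change was 0.61, against -0.04 over all genes tested. The members include hormone synthesis, JAZ repressors, the regulator MYC2 and the storage proteins VSP1 and VSP2. With each library left out in turn 17 of the 18 were called in all 6 fits, and a fit of the 6 libraries alone called 15. The untested JAZ8, JMT and CYP94B3 stood at no more than 0.752 FPKM in any of the 6 libraries.

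The G-box, CACGTG, is the sequence that MYC2 and other bHLH and bZIP factors are known to bind. Read on both strands in the 250 bases before the annotated start, it was in 4 of 22 tested jasmonate genes (18.2%), in 14.3% of the 335 promoters of genes called higher, in 7.14% of the 336 of genes called lower and in 7.42% of all 16807. The promoters of 3 called members that hold it are shown, with the G-box in capitals, because the genes stand for hormone synthesis and its repressors; JAZ7, the other gene with a G-box, was not called. They are from the RefSeq assembly TAIR10.1, written along the gene's own strand: AOS at chr5:17099596-17099845 (minus strand), JAZ2 at chr1:28150447-28150696 (minus strand) and JAZ3 at chr3:6119457-6119706 (plus strand). A match describes these letters and shows no binding.
AOS: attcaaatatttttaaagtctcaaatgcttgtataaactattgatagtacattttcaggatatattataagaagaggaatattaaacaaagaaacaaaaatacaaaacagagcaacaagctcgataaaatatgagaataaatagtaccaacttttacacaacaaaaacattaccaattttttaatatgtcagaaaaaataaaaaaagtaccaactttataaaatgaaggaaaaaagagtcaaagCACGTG
JAZ2: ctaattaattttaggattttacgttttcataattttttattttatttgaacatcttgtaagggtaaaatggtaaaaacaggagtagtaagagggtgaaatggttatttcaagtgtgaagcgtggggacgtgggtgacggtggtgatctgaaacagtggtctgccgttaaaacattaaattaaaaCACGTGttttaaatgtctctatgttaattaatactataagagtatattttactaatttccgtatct
JAZ3: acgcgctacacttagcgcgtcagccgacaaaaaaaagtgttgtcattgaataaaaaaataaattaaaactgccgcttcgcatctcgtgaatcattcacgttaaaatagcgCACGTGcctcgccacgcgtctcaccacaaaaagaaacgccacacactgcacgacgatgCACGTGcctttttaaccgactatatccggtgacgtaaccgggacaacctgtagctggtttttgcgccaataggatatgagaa
The first base of the G-box lies 6 bases before the start in AOS, 66 in JAZ2, and 140 and 82 in JAZ3, which holds 2.

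Among the synthesis genes, LOX2 (AT3G45140, chromosome 3, 16525245 to 16529352), the chloroplast lipoxygenase that starts the pathway, had 178, 187 and 186 FPKM at 30 min, against 65.0, 60.2 and 60.2 FPKM at 0 min. Every library at 30 min was far above every library at 0 min (log2 fold change 1.56, SE 0.041, adjusted p = 1.49e-17). AOS, which makes the allene oxide, had 176, 179.8 and 180.2 FPKM at 30 min and 123, 120.1 and 129 FPKM at 0 min. Its groups did not overlap and its change was smaller, though precise (log2 fold change 0.52, SE 0.031, adjusted p = 1.97e-11). The cyclases AOC1 (0.87, adjusted p = 4.68e-11), AOC2 (0.71) and AOC3 (0.68) rose, and AOC4 had 0.13 with an adjusted p of 0.236; reads of these close paralogs may be shared. OPR3, the peroxisomal reductase, had 25.2, 26.5 and 26.3 FPKM at 30 min, against 13.8, 16.0 and 15.7 FPKM at 0 min (log2 fold change 0.74, SE 0.064, adjusted p = 2.43e-08). Again no library of one time reached those of the other. LOX3 (0.42) and LOX4 (0.59), further lipoxygenases of the pathway, rose less than LOX2, at means of 4.39 and 3.93 FPKM at 30 min and 3.02 and 2.28 FPKM at 0 min.

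Of the JAZ repressor genes, JAZ9 had the highest level. It had 118, 104 and 107 FPKM at 30 min and 54.9, 53.3 and 53.8 FPKM at 0 min (log2 fold change 1.01, SE 0.051, adjusted p = 1.25e-12). JAZ1 had 7.48, 6.84 and 7.86 FPKM at 30 min, against 2.34, 2.59 and 2.67 FPKM at 0 min (log2 fold change 1.25, SE 0.11, adjusted p = 5.93e-08). Both sets of 3 libraries were tight and well apart. JAZ5 (0.92), JAZ6 (0.62), JAZ2 (0.53) and JAZ3 (0.35) rose as well, each with no overlap between the times. JAZ10 was called (0.60, adjusted p = 0.0371), with 1.58, 1.48 and 1.84 FPKM at 30 min and 0.527, 1.13 and 0.612 FPKM at 0 min, but stayed called in 1 of the 6 fits that leave out a library, the one without replicate 2 at 0 min, and its adjusted p reached 0.156 in the others. JAZ7 (0.28, adjusted p = 0.501) and JAZ12 (0.17, adjusted p = 0.142) were not called. MYC2, the factor these proteins repress, had 21.9, 25.2 and 20.7 FPKM at 30 min and 15.7, 16.3 and 16.5 FPKM at 0 min (log2 fold change 0.45, SE 0.086, adjusted p = 0.00184). In the 6 libraries alone neither MYC2 nor JAZ3 was called (adjusted p = 0.0628 and 0.117). CYP94C1, an enzyme that breaks the active hormone down, had 0.08 with an adjusted p of 0.839. It was the only gene of hormone breakdown tested in the list, so it does not speak for breakdown as a whole.

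The vegetative storage proteins, long used as markers of the hormone in leaves, changed most within the list. VSP1 (AT5G24780, chromosome 5, 8507590 to 8509201) had 42.6, 42.9 and 41.7 FPKM at 30 min, against 5.22, 4.70 and 6.92 FPKM at 0 min (log2 fold change 2.73, SE 0.084, adjusted p = 2.16e-16). Among called protein-coding genes averaging 5 FPKM or more over the 30 libraries, with groups that do not overlap, it had the largest rise. VSP2, its neighbour on the chromosome (8500468 to 8502224), had 63.1, 69.2 and 70.9 FPKM at 30 min and 16.1, 16.1 and 17.2 FPKM at 0 min (log2 fold change 1.98, SE 0.081, adjusted p = 3.73e-14). In both genes the values within a time were close and the times far apart; reads of the pair may be shared, since the proteins are close paralogs.

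**Figure D2:**
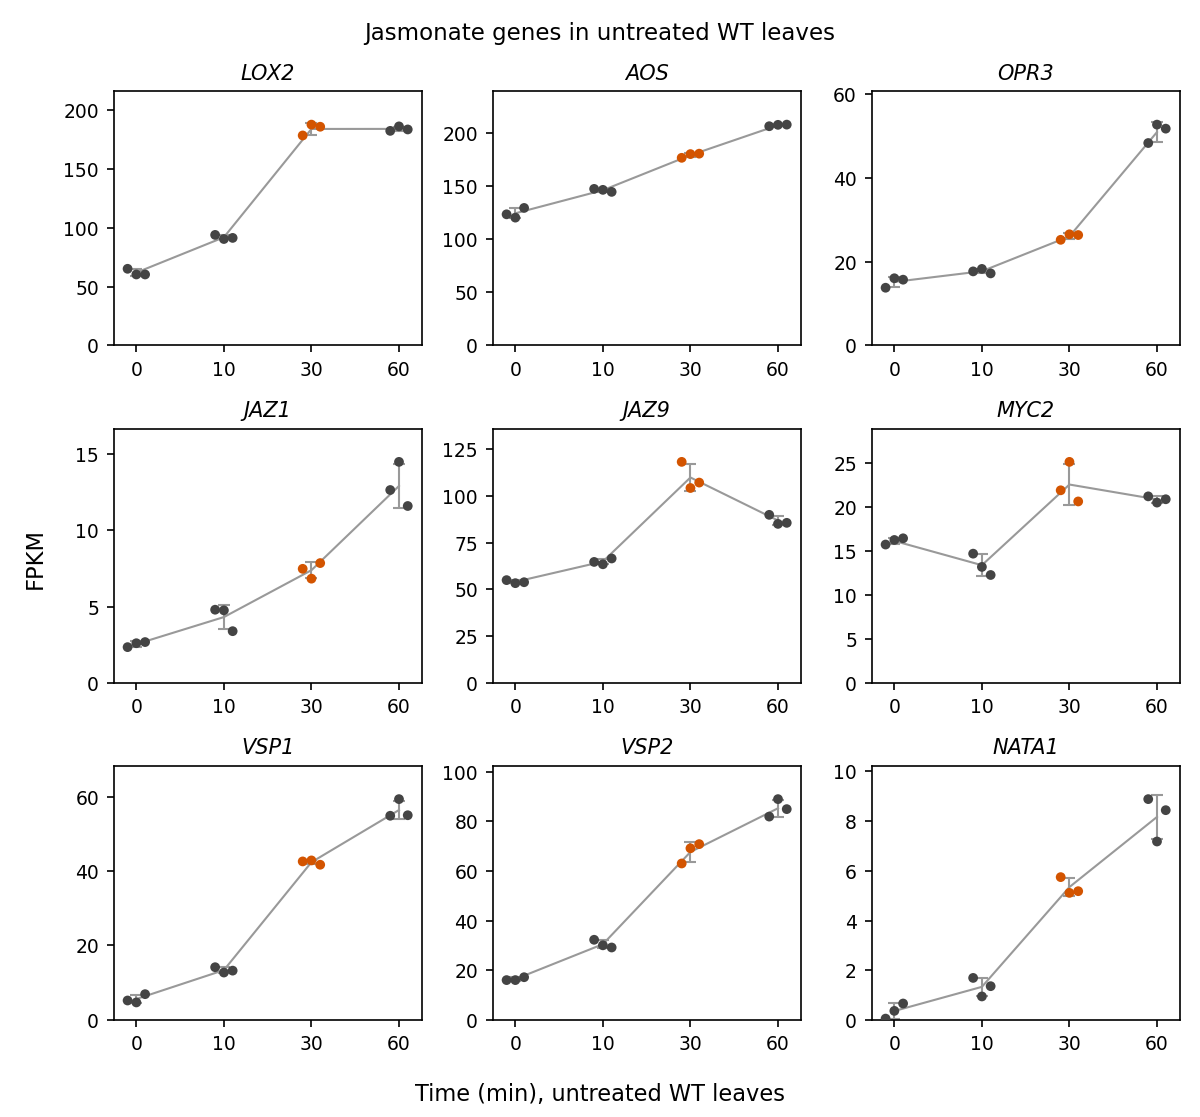
FPKM of 9 genes in untreated WT leaves at 0, 10, 30 and 60 min, with the times evenly spaced on the axis. Points are libraries (30 min in orange), and lines and bars are the mean and SD of 3. LOX2 and JAZ9 stood at their 60 min level or above it by 30 min, while VSP1, VSP2, JAZ1, OPR3 and NATA1 were higher still at 60 min.

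Means at 10 and 60 min place the 30 min leaves within a course. VSP1 stood at 5.61, 13.4, 42.4 and 56.4 FPKM at 0, 10, 30 and 60 min, and VSP2 at 16.4, 30.5, 67.7 and 85.3 FPKM. LOX2 stood at 61.8, 91.8, 184 and 184 FPKM. At 30 against 10 min, where limma called 482 genes (2.76%; 1.97% higher and 0.789% lower), 16 of the 22 jasmonate genes were called higher and none lower. At 60 against 30 min, where it called 1705 genes (9.75%; 5.95% higher and 3.8% lower), 16 were called higher and 1, JAZ9, lower. These comparisons share the 30 min libraries with each other and with the comparison to 0 min. Waterlogged leaves at 30 min had means of 232 FPKM for VSP1, 246 FPKM for VSP2 and 339 FPKM for LOX2.

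Other genes outside the jasmonate list were among the largest rises of called protein-coding genes averaging 5 FPKM or more over the 30 libraries. NATA1, which acetylates amines such as ornithine, had 5.75, 5.11 and 5.18 FPKM at 30 min, against 0.0525, 0.363 and 0.661 FPKM at 0 min (log2 fold change 2.25, SE 0.17, adjusted p = 1.5e-09). AT4G17470, annotated in RefSeq as an alpha/beta-hydrolase, had 7.93, 7.30 and 7.78 FPKM at 30 min and 0.284, 0.759 and 0.134 FPKM at 0 min (log2 fold change 2.66, SE 0.15, adjusted p = 7e-12). Both were below 1 FPKM in each library at 0 min and well above it in each library at 30 min. AT1G73325, annotated as a Kunitz-type protease inhibitor, rose (1.61, adjusted p = 2.62e-07), as did JAL23, a jacalin-related lectin (1.60, adjusted p = 7.94e-14). NATA1, AT4G17470 and AT1G73325 passed the filter in part through other groups. In waterlogged leaves at 30 min they averaged 42.5, 16.1 and 13.5 FPKM.

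CYP81F4, a monooxygenase that modifies indole glucosinolates, had 13.9, 15.1 and 13.1 FPKM at 30 min, against 4.07, 3.86 and 4.29 FPKM at 0 min (log2 fold change 1.56, SE 0.09, adjusted p = 1.51e-11). AT1G14250, annotated as a nucleoside phosphatase, averaged 48.3 ± 0.890 FPKM at 30 min and 15.4 ± 0.606 FPKM at 0 min (SD, n = 3 each; 1.59, adjusted p = 2.98e-16). AT5G05600, annotated as a 2-oxoglutarate-dependent oxygenase, averaged 10.3 ± 0.792 FPKM at 30 min and 3.16 ± 0.537 FPKM at 0 min (1.45, adjusted p = 1.28e-10). These genes were picked among those whose groups do not overlap, so their separation follows from the rule. The near-identical pair AT3G28290 and AT3G28300 rose alike (1.31 and 1.30), and since reads can be split between the copies their separate values are uncertain. BAM5, a beta-amylase, was low in both groups, at 1.46, 1.78 and 1.67 FPKM at 30 min and 0.191, 0.113 and 0.326 FPKM at 0 min (1.13, adjusted p = 8.05e-07).

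Genes of aliphatic glucosinolate synthesis, which makes sulfur-rich defence compounds from methionine, rose by small steps. All 14 members were tested, 11 were called higher and none lower (78.6% called, against 3.92% of all genes). Their median was 0.36, against -0.04 over all genes. In all 6 fits that leave out a library 10 of the 11 were called. MAM1, which lengthens the methionine chain, had 231, 233 and 241 FPKM at 30 min, against 163, 173 and 168 FPKM at 0 min (log2 fold change 0.48, SE 0.037, adjusted p = 3.87e-09). CYP79F1, the first enzyme of the core structure, had 150.3, 155 and 158 FPKM at 30 min and 109, 101 and 103 FPKM at 0 min (log2 fold change 0.56, SE 0.05, adjusted p = 4.69e-08). SOT17, the sulfotransferase of the last core step, had 43.8, 46.3 and 46.5 FPKM at 30 min and 28.6, 30.0 and 28.0 FPKM at 0 min (log2 fold change 0.64, SE 0.056, adjusted p = 3.68e-08). The times did not overlap in any of the 3 genes.

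BCAT4 (0.57), GGP1 (0.46), FMOGS-OX1 (0.39), SOT18 (0.32), SUR1 (0.30), CYP83A1 (0.29) and UGT74C1 (0.28), other enzymes of the route, rose as well, and SOT18 alone of these lost its call in the 6 libraries alone (adjusted p = 0.0859). Of the MYB factors known to switch the pathway on, MYB28 had -0.18 (adjusted p = 0.0584) and MYB29 0.14 (adjusted p = 0.232). The third, MYB76, was called (0.61, adjusted p = 0.043) but in none of the 6 fits that leave out a library, where its adjusted p reached 0.165. At 30 against 10 min 9 of the 14 genes were called higher and none lower (1.97% and 0.789% of all genes). At 60 against 30 min 10 were called lower and none higher (3.8% and 5.95% of all genes). MAM1 averaged 168, 192, 235 and 202 FPKM at 0, 10, 30 and 60 min.

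In the flavonoid list, 14 of 20 members were tested, 7 were called higher and 1 lower, with a median of 0.20. That is 57.1% called, against 3.92% of all genes. In all 6 fits without a library 4 of the 7 and the 1 lower gene were called, and the 6 libraries alone gave 3 and 1. The late genes of anthocyanin synthesis moved most. DFR had 3.26, 4.21 and 4.77 FPKM at 30 min, against 1.30, 1.53 and 1.31 FPKM at 0 min (log2 fold change 1.08, SE 0.12, adjusted p = 1.85e-06). LDOX, the next enzyme, had 4.84, 5.33 and 4.44 FPKM at 30 min and 1.77, 1.57 and 1.74 FPKM at 0 min (log2 fold change 1.12, SE 0.14, adjusted p = 7.63e-06). Both remained low, but their libraries at 30 min were all above those at 0 min. PAP1, a MYB activator of this branch, was called (0.54, adjusted p = 0.0138), and lost its call without replicate 1 or 2 at 0 min and without replicate 2 or 3 at 30 min (adjusted p up to 0.0746). UGT78D2, which adds glucose to flavonoids, fell (-0.36, adjusted p = 5.99e-05), while CHS, the first enzyme of the pathway, had 0.24 (adjusted p = 0.0486) and was called in 1 of the 6 fits.

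**Figure D3:**
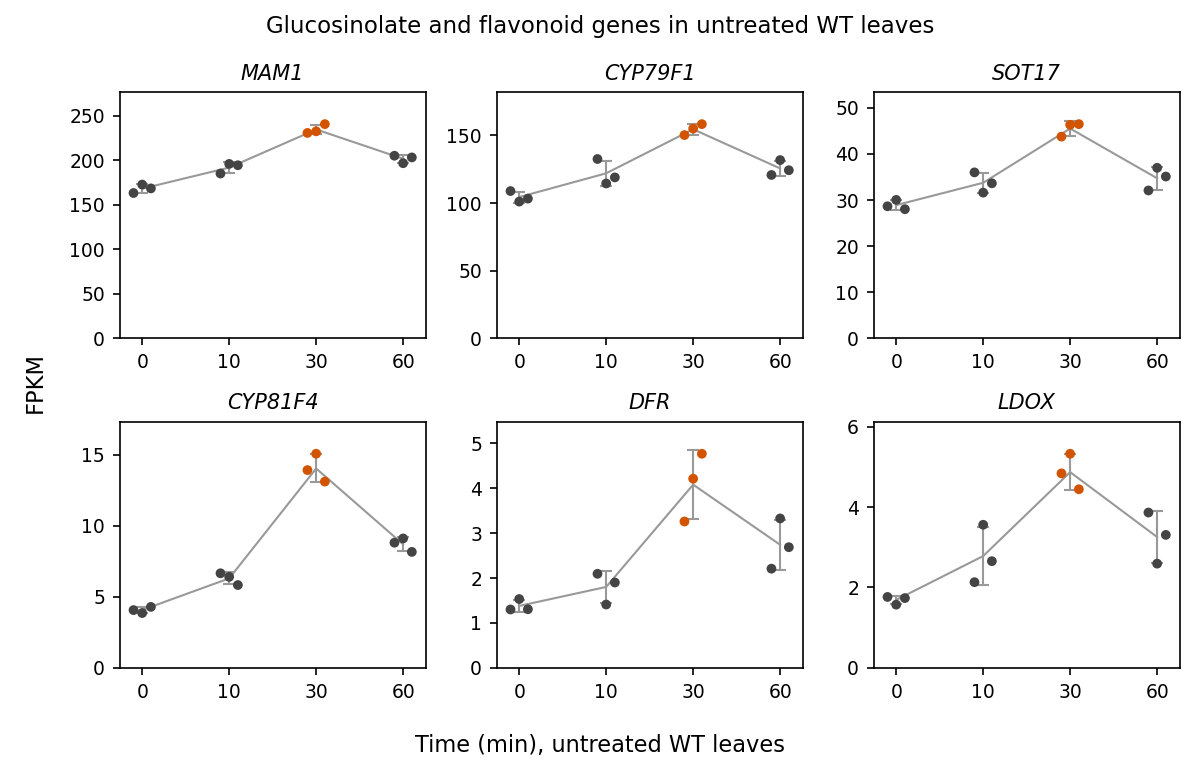
FPKM of 3 aliphatic glucosinolate genes, the indole glucosinolate gene CYP81F4 and the anthocyanin genes DFR and LDOX in untreated WT leaves at 0, 10, 30 and 60 min (evenly spaced), with libraries as points (30 min in orange) and the mean and SD of 3 as lines and bars. In each gene the mean at 30 min is the highest of the 4 times.

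Among called protein-coding genes averaging 5 FPKM or more over the 30 libraries, with groups that do not overlap, the PR genes BGL2 and PR1, classical targets of salicylate, fell most. PR1 averaged under 5 FPKM in both groups compared and passed that filter through other groups of the series. Of 13 salicylate genes tested out of 16, 3 were called lower and 1 higher (30.8% called, against 3.92% of all genes), with a median of -0.08. These calls were kept in all 6 fits without a library and in the fit of the 6 libraries alone. BGL2 (also called PR2; AT3G57260, chromosome 3, 21188397 to 21189967), a secreted glucanase, had 7.35, 8.09 and 8.24 FPKM at 30 min, against 40.8, 44.2 and 40.5 FPKM at 0 min (log2 fold change -2.27, SE 0.094, adjusted p = 4.24e-14). PR1 had 0.644, 0.759 and 0.384 FPKM at 30 min and 5.63, 4.09 and 4.33 FPKM at 0 min (log2 fold change -1.83, SE 0.23, adjusted p = 1.07e-05). PR5, a thaumatin-like protein, had 56.8, 56.3 and 55.7 FPKM at 30 min and 86.8, 90.1 and 90.4 FPKM at 0 min (log2 fold change -0.65, SE 0.052, adjusted p = 7.09e-09). In all 3 genes every library at 30 min was below every library at 0 min, by a smaller share of its level in PR5 than in BGL2.

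Genes of salicylate synthesis and its regulators were not called: ICS1, the main synthesis enzyme, had 0.07 (adjusted p = 0.701), EDS1 0.05 (adjusted p = 0.822), NPR1 -0.08 (adjusted p = 0.714) and PAD4 -0.12 (adjusted p = 0.561). WRKY70, a factor known to act between salicylate and jasmonate, rose, with 40.6, 41.0 and 41.2 FPKM at 30 min and 26.7, 30.0 and 29.7 FPKM at 0 min (log2 fold change 0.49, SE 0.063, adjusted p = 1.09e-05). The PR genes stood lowest at 30 min among the 4 times. BGL2 averaged 41.8, 10.7, 7.90 and 18.2 FPKM at 0, 10, 30 and 60 min, and PR1 4.68, 1.82, 0.596 and 4.04 FPKM. At 60 against 30 min 7 of the 13 genes were called higher, BGL2 (1.10) and PR1 (1.64) among them, and none lower. Over all genes 5.95% were called higher there and 3.8% lower.

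Of the other genes with the largest falls, AT5G10760, annotated as an aspartyl protease and also known as AED1, had 3.37, 3.61 and 3.93 FPKM at 30 min, against 10.9, 9.78 and 11.4 FPKM at 0 min (log2 fold change -1.34, SE 0.12, adjusted p = 3.18e-08). EXT3, a cell wall extensin, had 3.17, 2.58 and 3.61 FPKM at 30 min and 9.65, 7.77 and 7.17 FPKM at 0 min (log2 fold change -1.16, SE 0.14, adjusted p = 3.22e-06). AT3G02910 (-0.99), of a family named for induction by avirulence, and AT4G27657 (-0.95), of unknown function, fell too. AT5G57760, uncharacterized, was called (-1.22, adjusted p = 0.00257), but not in the fit of the 6 libraries alone (adjusted p = 0.0974). MYB13 was called at -0.84 (adjusted p = 0.00657), but with a pseudocount of 0.1 its adjusted p was 0.0514.

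Light signalling genes were the largest group of falls among the lists. Of 20 members 19 were tested, none was called higher and 11 were called lower (57.9% called, against 3.92% of all genes), 8 did not pass the test, and all 19 had a negative fold change, with a median of -0.30 (18 without replicate 3 at 0 min or replicate 1 at 30 min). In all 6 fits that leave out a library 8 of the 11 were called, and the 6 libraries alone gave 6. HY5, the bZIP factor at the centre of light responses, had 21.2, 21.7 and 21.2 FPKM at 30 min, against 31.4, 36.2 and 32.9 FPKM at 0 min (log2 fold change -0.62, SE 0.12, adjusted p = 0.00252). CGA1, a light-induced GATA factor for chloroplast development, had 12.4, 14.0 and 14.3 FPKM at 30 min and 28.3, 24.5 and 24.4 FPKM at 0 min (log2 fold change -0.87, SE 0.14, adjusted p = 0.000387). Both genes had separate groups, and GNC, the paralog of CGA1, also fell (-0.40).

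The small B-box proteins BBX29 to BBX31, of which BBX30 and BBX31 are microproteins, fell: BBX29 (-0.98, adjusted p = 6.06e-07), BBX30 (-0.84, adjusted p = 8.35e-05) and BBX31 (-0.67, adjusted p = 0.0209). BBX31 was called in 2 of the 6 fits that leave out a library, those without replicate 1 at 0 min or replicate 2 at 30 min, with an adjusted p of up to 0.092 in the others. BBX32, a related gene that is not on the list, fell more than any list member, with 10.3, 11.4 and 10.1 FPKM at 30 min and 29.2, 28.1 and 30.5 FPKM at 0 min (log2 fold change -1.39, SE 0.14, adjusted p = 6.37e-07). HYH, the paralog of HY5, averaged 81.2 FPKM at 30 min and 105 FPKM at 0 min (-0.37), and SIG5, a plastid sigma factor, averaged 95.4 FPKM at 30 min and 117 FPKM at 0 min (-0.30); neither was called in the 6 libraries alone (adjusted p = 0.104 and 0.0548). ELIP1 and ELIP2, early light-induced proteins, were not called (-0.05 and -0.43, adjusted p = 0.927 and 0.124).

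The fall was not a steady one. At 30 against 10 min 5 light signalling genes were called higher and none lower (1.97% and 0.789% of all genes). At 60 against 30 min none was called higher and 12 lower (5.95% and 3.8% of all genes). HY5 averaged 33.5, 16.3, 21.4 and 10.8 FPKM at 0, 10, 30 and 60 min, and CGA1 25.7, 9.91, 13.6 and 5.60 FPKM. Their rises from 10 to 30 min were not called in limma (0.37 and 0.42, adjusted p = 0.127 and 0.16). BBX32 averaged 29.3, 10.7, 10.6 and 7.32 FPKM. The light-harvesting genes, which are targets of the same signalling and among the most abundant transcripts, had a positive fold change in all 18 (median 0.08; 17 after quantile normalization and 15 without replicate 1 at 0 min), but 1 was called, LHCA4 (0.15, adjusted p = 0.0357), and it kept its call only without replicate 3 at 0 min, with an adjusted p of up to 0.173 in the other 5 fits.

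Of 14 morning clock genes, all tested, 4 were called lower and none higher (28.6% called, against 3.92% of all genes), with a median of -0.11. PRR9, a repressor of CCA1 and LHY, alone was called in all 6 fits that leave out a library. PRR9 had 40.6, 45.1 and 40.6 FPKM at 30 min, against 57.1, 57.2 and 61.1 FPKM at 0 min, with a wide gap between the groups (log2 fold change -0.47, SE 0.061, adjusted p = 1.8e-05). Its promoter (chr2:19232357-19232606, plus strand, TAIR10.1, G-boxes in capitals) is shown because 7 of the 14 morning genes (50%) hold a G-box in the same window, against 7.42% of all.
PRR9: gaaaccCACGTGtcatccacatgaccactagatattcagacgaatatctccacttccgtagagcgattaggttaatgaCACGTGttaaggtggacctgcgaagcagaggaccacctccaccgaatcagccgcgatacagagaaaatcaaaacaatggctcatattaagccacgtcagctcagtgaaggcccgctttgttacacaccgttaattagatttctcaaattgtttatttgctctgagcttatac
The first bases of its 2 G-boxes lie 244 and 172 bases before the start. The evening element, AAAATATCT, is not in this window, and it is in 2.48% of all promoters and in 1 of the 14.

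CCA1 had 139, 145 and 145 FPKM at 30 min and 157, 164 and 162 FPKM at 0 min (log2 fold change -0.17, SE 0.044, adjusted p = 0.0298). The groups did not overlap, but the call held in 1 of the 6 fits without a library, the one without replicate 1 at 0 min, and its adjusted p reached 0.133 in the other 5. LHY, its partner, had 157, 169 and 167 FPKM at 30 min and 177, 166 and 167 FPKM at 0 min, which overlap (-0.05, SE 0.078, adjusted p = 0.815). PRR7 (-0.17, adjusted p = 0.0265) was called in 2 of the 6 fits, those without replicate 2 at 0 min or replicate 3 at 30 min, with an adjusted p of up to 0.117. RVE7 (-0.35, adjusted p = 0.0118) lost its call without replicate 1 at 0 min or replicate 1 at 30 min (adjusted p up to 0.0859). RVE8, an activator of evening genes, was not called (-0.15, adjusted p = 0.129).

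More morning genes were called against the neighbouring times. At 30 against 10 min 8 of the 14 were called higher and none lower (1.97% and 0.789% of all genes). At 60 against 30 min 9 were called lower and none higher (3.8% and 5.95% of all genes). PRR7 and RVE7 were called in neither. CCA1 averaged 161, 104, 143 and 94.7 FPKM at 0, 10, 30 and 60 min, and LHY 170, 109, 164 and 98.6 FPKM. PRR9 averaged 58.5, 32.3, 42.1 and 24.5 FPKM. In each the 10 and 60 min means lie below the 0 and 30 min means. Waterlogged leaves at 30 min averaged 109.7 FPKM for CCA1, 122 FPKM for LHY and 27.9 FPKM for PRR9.

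Evening clock genes showed no call. Of 12 members 7 were tested, limma called none, and 1 higher and 1 lower had an unadjusted p under 0.05. Over all 17491 genes tested 3.92% were called, and 2788 genes had such an unadjusted p. TOC1 had -0.23 (adjusted p = 0.179), LUX 0.10 (adjusted p = 0.564) and GI 0.14 (adjusted p = 0.182; 0.0301 after quantile normalization). PRR5 and ELF4 were below the filter on low values, at 0.257 to 0.36 FPKM and 0 to 0.224 FPKM at 30 min and 0.219 to 0.467 FPKM and 0 to 0.25 FPKM at 0 min.

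**Figure D4:**
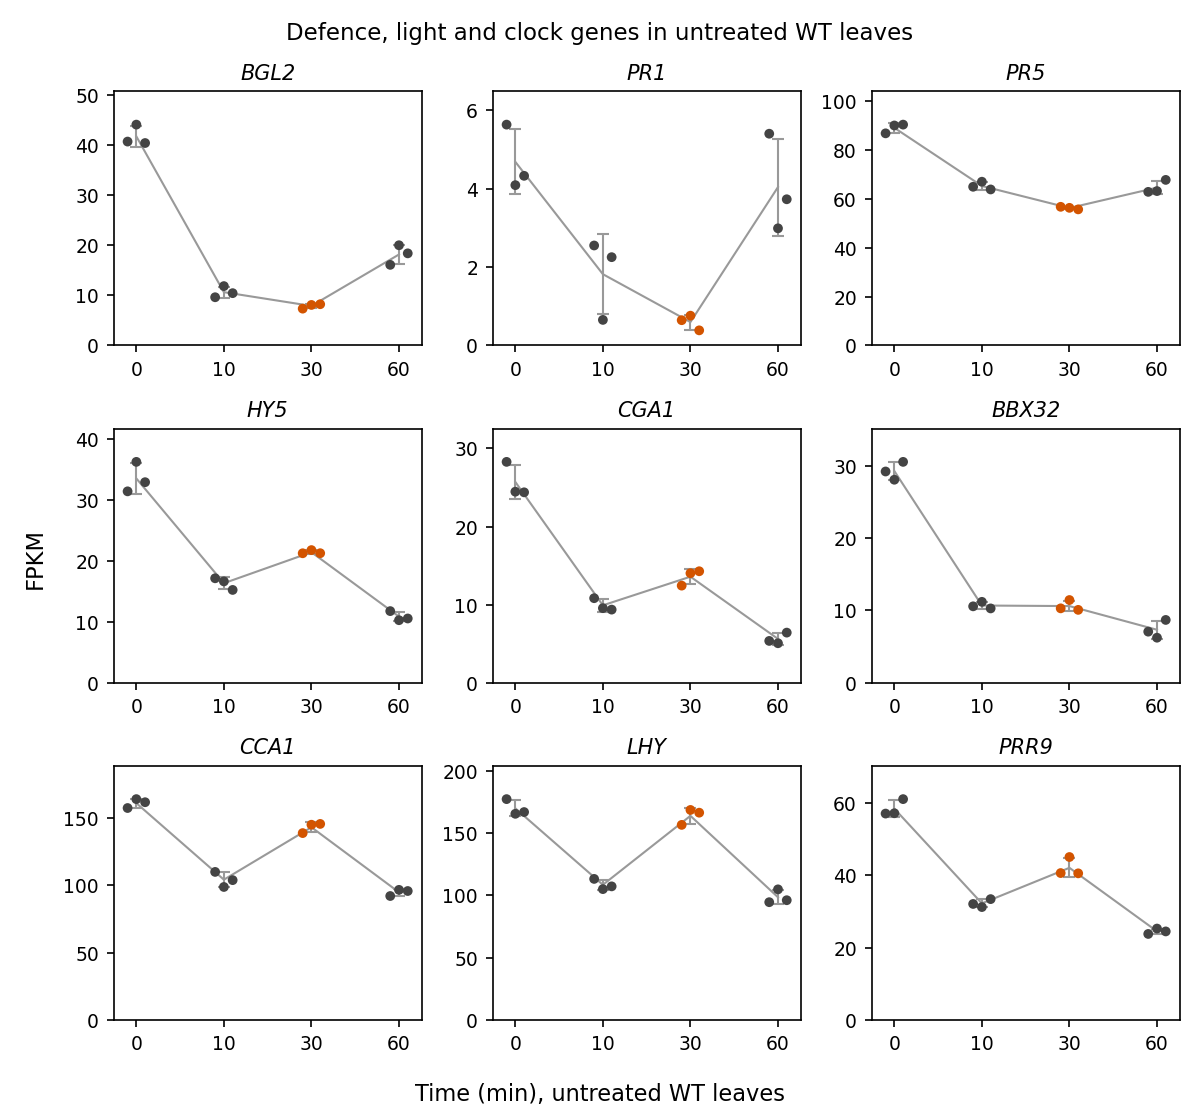
FPKM of PR genes (top row), light genes (middle) and clock genes (bottom) in untreated WT leaves at 0, 10, 30 and 60 min (evenly spaced), with libraries as points (30 min in orange) and the mean and SD of 3 as lines and bars. BGL2, PR1 and PR5 are lowest at 30 min, whereas HY5, CGA1, CCA1, LHY and PRR9 are higher at 30 min than at 10 and 60 min. In HY5 and CGA1 the rise from 10 to 30 min was not called.

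Early genes of touch, wounding and reactive oxygen species, the class that a systemic signal of stress is known to induce, rose in part. Of 31 members 27 were tested, 7 were called higher and 1 lower (29.6% called, against 3.92% of all genes), with a median of 0.28. In all 6 fits without a library 6 and 1 were called. TCH4, a cell wall enzyme induced by touch, had 52.3, 59.3 and 56.6 FPKM at 30 min, against 34.0, 33.6 and 37.7 FPKM at 0 min (log2 fold change 0.66, SE 0.07, adjusted p = 7.72e-07). WRKY40, a repressor induced by many stresses, had 2.81, 2.81 and 2.75 FPKM at 30 min and 0.664, 1.001 and 0.953 FPKM at 0 min (log2 fold change 1.02, SE 0.089, adjusted p = 2.99e-08). Both genes were higher in each library at 30 min, WRKY40 from a level near 1 FPKM. PHI-1 (0.47), SZF1 (0.36) and MYB44 (0.28) also rose, and WRKY46 fell (-0.63, adjusted p = 0.000526). ERF6 was called (0.60, adjusted p = 0.00285), but not in the 6 libraries alone (adjusted p = 0.186).

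ZAT10 and ZAT12, zinc finger genes often used as markers of such signals, were not called, with 5.77, 7.84 and 6.44 FPKM at 30 min and 7.16, 6.62 and 6.49 FPKM at 0 min for ZAT10 (-0.02, adjusted p = 0.968) and -0.28 for ZAT12 (adjusted p = 0.498). RBOHD, the oxidase that makes the reactive oxygen of the systemic signal, had 20.3, 20.8 and 20.5 FPKM at 30 min and 17.5, 17.1 and 17.6 FPKM at 0 min. Its groups did not overlap, and its adjusted p of 0.0557 (0.22, SE 0.065) missed the threshold; it was 0.0396 with a filter of 5 FPKM and 0.0136 after quantile normalization. TCH4 averaged 35.1, 74.0, 56.1 and 76.9 FPKM at 0, 10, 30 and 60 min. At 30 against 10 min 2 of the 27 were called higher and 5 lower (1.97% and 0.789% of all genes), TCH4 among the lower (-0.39). At 60 against 30 min 16 were called higher and none lower (5.95% and 3.8% of all genes). Waterlogged leaves at 30 min averaged 499 FPKM for TCH4, 61.1 FPKM for ZAT10 and 21.8 FPKM for WRKY40.

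Iron homeostasis genes moved in both directions. All 17 were tested, 4 were called higher and 4 lower (47.1% called, against 3.92% of all genes), with a median of -0.10. In all 6 fits without a library 4 and 3 were called, and the 6 libraries alone gave 2 and 2. PYE, a regulator of iron deficiency responses, had 25.3, 26.9 and 30.1 FPKM at 30 min, against 18.9, 19.9 and 18.9 FPKM at 0 min (log2 fold change 0.49, SE 0.064, adjusted p = 2.01e-05), and BTS, a ubiquitin ligase of the same response, also rose (0.35, adjusted p = 2.76e-05). BHLH38, a deficiency-induced factor, had 14.4, 15.6 and 14.7 FPKM at 30 min and 24.2, 25.4 and 22.9 FPKM at 0 min (log2 fold change -0.66, SE 0.078, adjusted p = 3.84e-06). The groups of both genes were separate. IMA2, a small peptide of iron signalling with the close paralog IMA1, fell (-0.60, adjusted p = 7.03e-06), and IMA1 was not called (-0.10, adjusted p = 0.773). FER4, a ferritin, was called (-0.39), and OPT3, an iron transporter, too (0.25), but neither in the 6 libraries alone (adjusted p = 0.0847 and 0.0689).

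**Figure D5:**
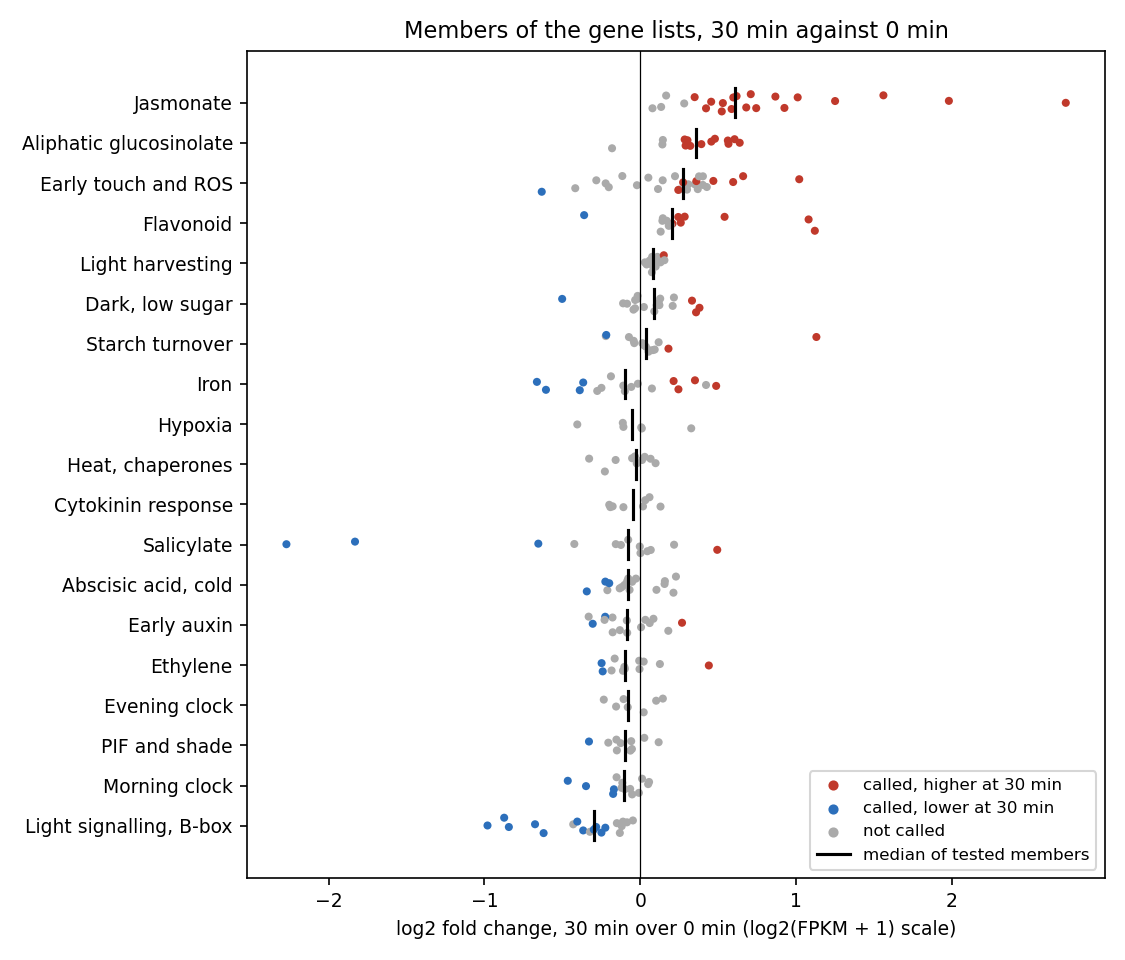
Each point is a tested member of a gene list, placed by its log2 fold change, 30 min over 0 min, with called members in colour and the list's median as a black bar. Medians run from 0.61 in the jasmonate list to -0.30 in the light signalling list, and most other lists lie near 0.

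Calls in the remaining lists were 4 or fewer each, and are given beside the 3.92% of all genes. In abscisic acid and cold 3 of 17 tested genes (17.6%) were called, all lower, and 1 of the 3 in all 6 fits without a library, ABI1, a phosphatase that restrains abscisic acid (-0.34, adjusted p = 0.00162); RD29A, a drought and cold marker, was not called (-0.07, adjusted p = 0.565). In early auxin genes 3 of 15 (20%) were called, IAA2 (-0.30) and IAA7 (-0.22) lower in each of these fits and 1 higher in not all of them, and the 6 libraries alone called none. In ethylene 3 of 12 (25%) were called, 1 higher, the synthesis gene ACS6 (0.44, adjusted p = 8.14e-05), and 2 lower, of which EBF1 lost its call without any 1 of the 6 libraries (adjusted p up to 0.163); the 6 libraries alone called ACS6 and none lower. In starch turnover 3 of 15 (20%) were called: BAM5 and PWD (0.18) higher and BAM9 (-0.22) lower. PWD kept its call only without replicate 1 at 30 min (adjusted p up to 0.232 in the other 5 fits), and BAM9 was not called in the 6 libraries alone (adjusted p = 0.0762). In genes of dark or low sugar 4 of 19 (21.1%) were called, 3 higher and 1 lower, DIN1 (-0.50); in all 6 fits without a library 1 and 1 were called, and the 6 libraries alone called none.

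Of 7 nitrate and sulfate genes 1 (14.3%) was called, APR1, which reduces activated sulfate, with 50.9, 51.2 and 53.3 FPKM at 30 min, against 36.4, 36.9 and 37.2 FPKM at 0 min (log2 fold change 0.48, SE 0.056, adjusted p = 3.45e-06). In day length outputs 2 of 6 (33.3%) were called, both lower, in PIF and shade genes 1 of 10 (10%), lower, and in brassinosteroid and gibberellin synthesis 1 of 7 (14.3%), higher. Of these 4 genes 1, CDF3 (-0.30), was called in all 6 fits without a library, and the 6 libraries alone called none. In hypoxia, heat and cytokinin response genes limma called none of 6, 10 and 8, and an unadjusted p under 0.05 was reached by 1, 3 and 1, all lower. Over all 17491 genes tested it was reached by 2788. ADH1, the fermentation gene induced by low oxygen, had 1.94, 1.87 and 2.43 FPKM at 30 min and 1.96, 2.40 and 1.82 FPKM at 0 min (0.01, adjusted p = 0.986).

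Of genes that do not code for protein, 3 were called higher and 10 lower among those with another RefSeq biotype. Of 407 long noncoding RNA genes 1 was called higher and 8 lower. Of 83 other noncoding RNA genes 2 were called lower, and of 14 small nuclear RNA genes 2 higher. Over all genes tested 3.92% were called. U1.6, a spliceosomal RNA, was listed at 22.4, 23.4 and 8.20 FPKM at 30 min and at 0 in all 3 libraries at 0 min. AT1G25175, a noncoding RNA, had 32.8, 28.8 and 32.3 FPKM at 30 min and 43.9, 97.1 and 93.9 FPKM at 0 min (-1.21, adjusted p = 0.0393), was high in replicates 2 and 3 alone at 0 min and was called in 1 of 6 fits without a library, the one without replicate 1 at 0 min (adjusted p up to 0.176). Short RNAs are estimated poorly from such libraries. U1.6, AT1G25175, CYP81F4, WRKY40, JAZ10, BCAT4, APR1, BBX32, EXT3, AT3G02910, AT5G57760, BHLH38, ABI1, BAM9, FER4, LHCA4, LUX, ADH1, MYC2, SOT18, UGT74C1, MYB44, CHS, JAZ12 and NPR1 each overlap another annotated gene, and as strand use is not given in the sources used here, reads of the partners cannot be told apart.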

How the data were processed

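The 30 libraries measured RNA of systemic leaves, and the 6 described here are those titled WT_control_30min and WT_0min. RNA was extracted with Qiagen columns and made into standard Illumina libraries, per the labels' protocols. Per the submitters' processing notes, Trim Galore 0.6.7, HISAT2 2.2.1, Cufflinks 2.2.1 and Cuffdiff were used, with the genome build TAIR10; the annotation and strand use are not given in the sources used here. The deposited files hold FPKM per gene with confidence bounds, 1 file per library, per the file headers. The authors thus scaled the values to library size and gene length, and they are not counts. Depth was read from the confidence bounds of the authors; low genes are the least precise, and a listed 0 can be a failed estimate.

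After dropping 2 genes with a failed status and 2 repeated identifiers, 32820 remained. FPKM were taken as log2(FPKM + 1); 17491 genes, those averaging 1 FPKM or more across all 30 libraries, were tested, and the 10 groups were fitted together in limma 3.58.1 (R 4.3.3; eBayes, 20 residual degrees of freedom), with two-sided tests and Benjamini-Hochberg adjustment over all genes tested in each of 6 comparisons. Sharing the spread of all groups gives each test more degrees of freedom than 3 against 3 libraries have. Waterlogged leaves and leaves of the rbohD mutant thus enter the spread and the filters on mean FPKM. On simulated libraries with 200 of 17491 genes changed between 30 and 0 min, 73.5% were recovered at a log2 change of 0.5 and 94.5% at 1, with 2.65% and 5.5% false among the called. The simulated noise was normal, independent between genes and without an effect of library or harvest. These rates therefore check the fit and need not hold for the real libraries.

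The comparison and the gene lists were chosen with earlier results of these data known. Genes are named by rule: the 12 largest rises and 12 largest falls among called protein-coding genes averaging at least 5 FPKM over the 30 libraries whose groups do not overlap, up to 2 of other biotypes each way, up to 3 called list members each way, and 19 fixed genes; other list members are named to complete a pathway. For the largest rises and falls the lack of overlap thus follows from the rule. Of the identifiers 99.1% matched RefSeq (TAIR10.1), and 99.9% of those had the same boundaries, so promoters were read by position. Figures were drawn with matplotlib 3.10.9, and tables with numpy 2.4.6 and pandas 2.3.3 under Python 3.11.15. Alternatives tried were other pseudocounts, filters and scalings, other fits, the replicate number as a block and leaving out each library; calls of list members under each were added after seeing the data.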

Additional observations from a re-analysis of the deposited data

How the results depend on the processing

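Of 84 genes named by rule and tested, 74 were called, 43 of them under every alternative in which they were tested. With the filter of 5 FPKM only 74 of the 84 were tested. No gene called in the fit as reported or in the alternative reversed its direction. Sign changes of genes called in neither were not counted. Leaving out 1 library in turn gave 445 to 528 called genes at 30 against 0 min (685 with all), 318 to 387 at 30 against 10 min (482) and 1270 to 1423 at 60 against 30 min (1705); 19 of the 74 named genes lost their call in at least 1 of the 6 fits. The lowest counts came without replicate 2 at 30 min for 30 against 0 min and without replicate 2 at 10 min for 30 against 10 min. Fitting only the 6 libraries compared called 267, 144 and 1102 genes in the same order, and 29 named genes lost their call at 30 against 0 min. Quantile normalization moved the split of calls: 438 higher and 216 lower at 30 against 0 min, where the fit as reported gave 338 and 347, and 877 higher and 885 lower at 60 against 30 min, where it gave 1041 and 664; the cause was not tested. The other settings (a pseudocount of 0.1, no filter, a filter of 5 FPKM, nuclear protein-coding genes scaled to equal totals, trend and robust options) gave 604 to 733 calls at 30 against 0 min. With the replicate number as a block 612 genes were called, and 7 named genes lost their call. Libraries with the same number at 30 and 0 min correlated in their deviations from the group means by 0.0894, 0.0421 and 0.107, so the numbers were not taken to pair them, although each 30 min library correlated best with its own number. Depth limits mainly low genes: of 32820 genes, 10696 to 10962 were listed at 0 in each of the 6 libraries.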

Other observations

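Indole glucosinolate genes, whose products are made from tryptophan, were listed after values had been seen, so their counts are a description. Of 16 members 14 were tested, 8 were called higher at 30 min and none lower (57.1% called, against 3.92% of all genes; median 0.35). All 8 kept their call with each library left out in turn. CYP79B2, which turns tryptophan into an oxime, had 46.3, 46.9 and 47.4 FPKM at 30 min, against 28.3, 27.6 and 27.6 FPKM at 0 min (log2 fold change 0.73, SE 0.067, adjusted p = 7.54e-08 in limma). CYP83B1, the next enzyme, had 156, 168 and 164 FPKM at 30 min and 122, 109.6 and 115 FPKM at 0 min (0.50, adjusted p = 1.26e-05). The groups of both genes were separate. IGMT5, a methyltransferase of the same branch as CYP81F4, rose by 1.57 (SE 0.19, adjusted p = 4.28e-06). The regulators MYB34 (-0.02, adjusted p = 0.937) and MYB51 (0.11, adjusted p = 0.679) were not called. CYP81F4, IGMT5 and APS3 each overlap another annotated gene.

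Sulfate assimilation genes, also listed after values had been seen, gave 10 called higher and none lower of 19 tested of 22, with a median of 0.22. That is 52.6% called, against 3.92% of all genes, and 5 of the 10 were called with each library left out in turn. APK2, which activates sulfate for the sulfotransferases, had 119, 122 and 119 FPKM at 30 min, against 74.3, 73.5 and 76.2 FPKM at 0 min (log2 fold change 0.68, adjusted p = 1.09e-10 in limma). APS3, an ATP sulfurylase, had 15.3, 15.6 and 15.4 FPKM at 30 min and 9.69, 9.71 and 9.67 FPKM at 0 min (0.62, adjusted p = 2.33e-05). Both genes were tight within a time and apart between times.

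Several called genes that stand in no list, named after their values were seen, changed at least 2-fold. BGLU18, a beta-glucosidase, averaged 681 ± 11.9 FPKM at 30 min and 322 ± 4.79 FPKM at 0 min (SD, n = 3 each; log2 fold change 1.08). ARGAH2, an arginase, averaged 149.5 ± 1.81 FPKM at 30 min and 71.7 ± 3.25 FPKM at 0 min (1.05). CORI3, named for its response to the jasmonate mimic coronatine, averaged 54.7 ± 2.52 FPKM at 30 min and 22.6 ± 1.43 FPKM at 0 min (1.24). MBP2, a myrosinase-binding protein, averaged 10.5 ± 0.47 FPKM at 30 min and 4.09 ± 0.209 FPKM at 0 min (1.17). PGIP2, an inhibitor of fungal polygalacturonases, averaged 59.9 ± 3.00 FPKM at 30 min and 27.9 ± 2.89 FPKM at 0 min (1.08). Each kept its call with each library left out in turn.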
